A study of Mus musculus with 15 samples.

Results

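The 10 genes described here mark disease-associated microglia, the state that microglia take up around amyloid plaques and dying neurons. They are Trem2, Tyrobp, Clec7a, Axl, Itgax, Spp1, Apoe, Lpl, Cst7 and Gpnmb. They were chosen by name, and the rows of both deposited tables that carry these symbols were used, 10 of 36265 genes with values. RNA was sequenced from the substantia nigra, the midbrain region that holds dopamine neurons, of C57Bl/6J mice whose age and sex the labels do not give. Each mouse had received a stereotaxic injection of an adeno-associated virus (AAV) on 1 side 3 weeks earlier, and the other side of the same mouse served as its uninjected control. The groups were 3 injected sides given AAV-hSYN1-miR-181 at 1.65e10 vector genomes, the 3 uninjected sides of those mice, 4 injected sides given AAV-hSYN1-GFP at 1e10 vector genomes, and 5 uninjected sides of GFP mice. GFP mouse 5 had an uninjected library only. The human synapsin 1 promoter (hSYN1) drives both transgenes in neurons, so microglia were not the cells meant to make miR-181 or GFP, and all uninjected sides come from animals that carried virus on the other side. Mature miR-181 was not measured by these libraries, and the labels do not name the arm or family member that the vector encodes. The miR-181 and GFP libraries were prepared as separate sets, read as 75-base pairs on a HiSeq and as 50-base pairs on a NovaSeq sequencer, and normalized separately. Vector, dose, library set and sequencer therefore change together, and their parts in any difference between the sets cannot be told apart.

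Microglia are the resident macrophages of the brain. The receptor TREM2 binds lipids and lipoproteins, apolipoprotein E among them, and signals through the adaptor TYROBP (also called DAP12), whose ITAM motif recruits the kinase SYK. In mouse models of amyloid disease microglia first raise Apoe and Tyrobp and lower homeostatic genes, and then, in a step that needs Trem2, raise Cst7, Clec7a, Itgax, Axl and Lpl, together with genes of the lysosome and of lipid handling.

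Values are TPM, an abundance set per transcript length, divided by a size factor of each library and called normalized TPM here, so levels can be compared between genes. They keep no record of read depth, which is unknown; each library had from 15022 to 15563 genes at 1 normalized TPM or above. The tissue label was checked against marker genes. Dopamine neuron markers (Th, Slc6a3 and Slc18a2) summed to between 383 and 907 in injected miR-181 sides, 603 and 901 in uninjected miR-181 sides, 1107 and 1331 in injected GFP sides, and 842 and 1415 in uninjected GFP sides. All 12 homeostatic microglia markers were above 0 in each group. The libraries of GFP mouse 1 also held pituitary hormone transcripts (Prl, Gh, Pomc and Cga), at 0.24% of the injected and 4.8% of the uninjected library, against at most 0.00172% in any other library. GFP calls of the 10 genes, and GFP counts of the lists, are given with and without that mouse where it changes a call or moves a count by over 1.5 times.

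The 10 genes spanned a wide range of levels. In injected miR-181 sides the order of the means was Apoe, Tyrobp, Spp1, Axl, Cst7, Trem2, Clec7a, Itgax, Gpnmb and Lpl, with Apoe at 4469.7 and Lpl at 5.11 normalized TPM. Neighbours in this order whose ranges overlapped were Spp1 and Axl, Cst7 and Trem2, Clec7a and Itgax, and Itgax and Gpnmb. In uninjected miR-181 sides the order was Apoe, Spp1, Tyrobp, Axl, Trem2, Lpl, Gpnmb, Clec7a, Cst7 and Itgax, with Apoe at 3375 and Itgax at 0.533 normalized TPM, and only Clec7a with Cst7 and Cst7 with Itgax overlapped. Injected GFP sides had the order Apoe, Spp1, Tyrobp, Axl, Trem2, Cst7, Gpnmb, Lpl, Clec7a and Itgax, in which Spp1 overlapped Tyrobp and each gene from Cst7 on overlapped the next. Uninjected GFP sides had the order Apoe, Spp1, Tyrobp, Axl, Trem2, Lpl, Gpnmb, Clec7a, Itgax and Cst7, in which Tyrobp overlapped Axl, Clec7a overlapped Itgax, and Itgax overlapped Cst7. Clec7a, Cst7 and Itgax thus lay under 1 normalized TPM on average in all uninjected sides. Cst7 stood next to Trem2 in the order of injected miR-181 sides, and was last or next to last in uninjected sides.

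**Figure D1:**
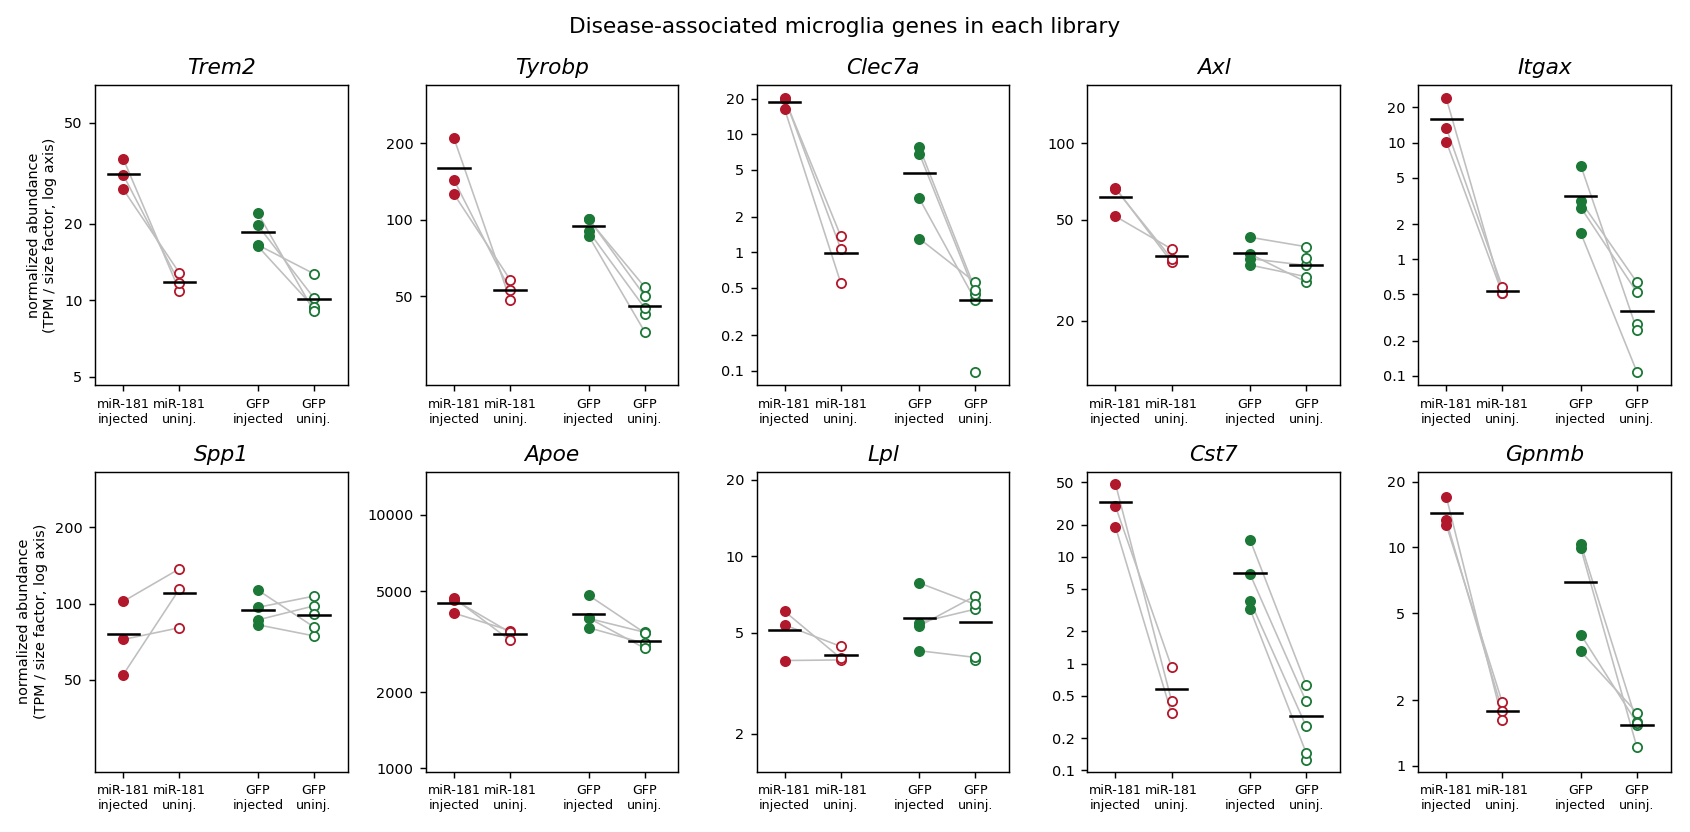
Normalized TPM (log axis, scaled for each panel) of the 10 genes in each library: filled circles are injected sides, open circles uninjected sides, red miR-181 mice and green GFP mice, black bars group means, and grey lines join both sides of a mouse. Cst7, Clec7a, Itgax and Gpnmb separate the sides most widely, and Spp1 and Lpl overlap between sides in both sets.

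Of the 10 genes, 8 were called higher in injected than in uninjected sides of miR-181 mice, 0 were called lower, and Spp1 and Lpl were not called. A call means an adjusted p under 0.05 in limma over all genes tested, with Benjamini-Hochberg adjustment. Of 15453 genes tested, 4.39% were called higher and 1.49% lower. Centring each library on its median gave 634 higher and 468 lower calls in place of 678 and 230. The median log2 change was 1.46 over the 10 genes and 0.00 over all genes tested. All 10 genes passed the minimum mean of 1, but Cst7, Clec7a and Itgax passed it through their injected sides, so their place among the called genes is given as a description. In tissue RNA, more cells of a type and more RNA per cell cannot be told apart.

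The receptor and its adaptor were both higher. Trem2 (ENSMUSG00000023992, chr17:48346401-48354147, + strand of GRCm38, as for all coordinates of genes here) had 27.3, 36 and 31.1 normalized TPM in the injected sides of miR-181 mice 1 to 3, against 12.8, 10.9 and 11.7 in their uninjected sides. The lowest injected side was above the highest uninjected side. Trem2 rose by a log2 change of 1.37 ± 0.11 (SE, n = 3 sides each; adjusted p = 0.00297), a ratio of means of 2.67. Tyrobp (ENSMUSG00000030579, chr7:30413760-30417585, + strand) had 126, 209 and 143 normalized TPM in injected sides, against 58, 48.4 and 52.7 in uninjected sides. The groups again did not overlap, and mouse 2 stood above the other injected sides. Tyrobp rose by 1.55 ± 0.18 on the log2 scale (adjusted p = 0.00748), and without the uninjected side of mouse 2 its adjusted p was 0.0539.

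Clec7a encodes dectin-1, a C-type lectin receptor that binds fungal glucans and signals through SYK. Clec7a (ENSMUSG00000079293, chr6:129461591-129472779, - strand, typed as a polymorphic pseudogene in GENCODE M21) had 16.2, 19.9 and 20.1 normalized TPM in injected miR-181 sides, against 0.55, 1.37 and 1.07 in uninjected sides. Every injected side was far above every uninjected side, and the log2 change was 3.72 ± 0.22 (adjusted p = 0.00225), a ratio of means of 18.8. Axl, a receptor tyrosine kinase of the TAM family that recognizes dying cells through the bridging protein GAS6, changed less. Axl (ENSMUSG00000002602, chr7:25757273-25788705, - strand) had 51.5, 66.6 and 66.1 normalized TPM in injected sides, against 38.3, 34 and 35.1 in uninjected sides. The sides did not overlap, with mouse 1 the lowest of the injected sides and the highest of the uninjected sides. Axl rose by 0.76 ± 0.11 on the log2 scale (adjusted p = 0.0139). That call was kept in 2 of 6 fits that left out 1 library: it was lost without any 1 of the uninjected sides or without the injected side of mouse 3, and the highest adjusted p was 0.0795.

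Itgax encodes CD11c, an integrin alpha chain that pairs with the beta chain of Itgb2 and is known as a marker of dendritic cells and of activated microglia. Itgax (ENSMUSG00000030789, chr7:128129547-128150657, + strand) had 10.2, 24 and 13.4 normalized TPM in injected miR-181 sides, against 0.508, 0.511 and 0.579 in uninjected sides. The uninjected sides lay close together while mouse 2 was the highest injected side. Its log2 change was 3.90 ± 0.29 (adjusted p = 0.00249), a ratio of means of 29.8. Spp1 encodes osteopontin, a secreted ligand of integrins and CD44 that some neurons also make. Spp1 (ENSMUSG00000029304, chr5:104435118-104441050, + strand) had 72.2, 52.5 and 102 normalized TPM in injected sides, against 80.3, 114 and 137 in uninjected sides. The groups overlapped, although each injected side was below the uninjected side of its own mouse, with log2 changes of -0.15, -1.11 and -0.42. The fitted change of -0.56 ± 0.27 had a 95% interval from -1.20 to 0.08 and was not called (adjusted p = 0.267). The 4 neuron markers Rbfox3, Syt1, Snap25 and Tubb3 summed to between 2159.9 and 2591 normalized TPM in injected miR-181 sides. In uninjected sides the sum was between 2717 and 2805, and 0 of 4 were called. Snap25 made up most of that sum, at means of 1418 in injected and 1706 in uninjected sides. Syt1 had a higher mean in injected sides (439.9 against 412). Rbfox3 (58.2 against 64) and Tubb3 (457 against 567) had lower means. The part of neurons in the Spp1 values was not tested.

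The lipid genes changed little. Apoe encodes the main lipoprotein of the brain, which astrocytes also make in quantity. Apoe (ENSMUSG00000002985, chr7:19696109-19699188, - strand) had 4092, 4626 and 4691 normalized TPM in injected miR-181 sides, against 3493, 3435 and 3197 in uninjected sides. The sides did not overlap, and mouse 1 was the lowest of the injected and the highest of the uninjected sides. Apoe rose by 0.40 ± 0.07 on the log2 scale (adjusted p = 0.0285), but with mouse as a block the adjusted p was 0.0549. Its call was kept in 1 of 6 fits that left out 1 library, the fit without the injected side of mouse 1, and the highest adjusted p was 0.12. The 7 astrocyte markers summed to between 2649.9 and 2691 normalized TPM in injected miR-181 sides, within the 2604 to 2715 of uninjected sides. Aldoc made up most of that sum, at means of 1549.6 in injected and 1607 in uninjected sides. Aqp4 had a higher mean in injected sides (245 against 179) and Gjb6 a lower mean (117 against 135). The part of astrocytes in the Apoe values was not tested. Lpl, the lipase that frees fatty acids from lipoprotein triglycerides, gave no call. Lpl (ENSMUSG00000015568, chr8:68880491-68907448, + strand) had 5.37, 3.89 and 6.07 normalized TPM in injected sides, against 4.42, 3.91 and 3.97 in uninjected sides. The groups overlapped and mouse 2 differed between its sides by -0.01 on the log2 scale. The change of 0.27 ± 0.17 was not called (adjusted p = 0.398), with a 95% interval from -0.14 to 0.67.

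The lysosomal and phagocytic genes were among the furthest raised. Cst7 encodes cystatin F, an inhibitor of cathepsins that reaches the lysosome. Cst7 (ENSMUSG00000068129, chr2:150570415-150578944, + strand) had 19, 48.1 and 29.6 normalized TPM in injected miR-181 sides, against 0.341, 0.447 and 0.929 in uninjected sides. Mouse 2 was the highest injected side, and even the lowest injected side was far above all uninjected sides. Cst7 rose by 4.87 ± 0.35 on the log2 scale (adjusted p = 0.00225), a ratio of means of 56.3 and the highest of the 10 genes. Gpnmb encodes a transmembrane glycoprotein of lysosomes and phagosomes. Gpnmb (ENSMUSG00000029816, chr6:49036546-49070929, + strand) had 12.7, 13.3 and 17.1 normalized TPM in injected sides, against 1.95, 1.78 and 1.62 in uninjected sides. Both groups were tight, and the log2 change was 2.69 ± 0.14 (adjusted p = 0.00225). With mouse as a block 7 of the 10 genes were called, Apoe being the gene lost, and 3.69% of all genes tested were called higher. For 8 of the 10 genes the injected and uninjected sides did not overlap, where 16% of all genes tested had every injected side above every uninjected side.

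Promoter windows of the genes were searched for a few motifs, and the windows that hold an AP-1 motif are shown. Whether any motif has a part in the changes was not tested. RefSeq windows of GRCm38.p6, from 250 bases before to 50 bases after a start, were found for 8 of the 10 genes, in 12 windows. The AP-1 motif was searched as TGANTCA, where N is any base, which reads alike on both strands. It was in a window of 4 of the 8 genes, Cst7, Gpnmb, Itgax and Trem2. It was thus in 4 of their 12 windows, and in 7.81% of all 32851 windows. It began at -6 in Cst7, at +9 in Gpnmb, at -56 in Itgax and at -9 in Trem2, where the first transcribed base is +1. Gpnmb held TGACTCA and Itgax TGAGTCA, the forms best known as sites of JUN and FOS proteins. Cst7 held TGATTCA and Trem2 TGAATCA. All 4 windows lie on the + strand, at chr2:150570165-150570464 (Cst7), chr6:49036268-49036567 (Gpnmb), chr7:128129300-128129599 (Itgax) and chr17:48346151-48346450 (Trem2). They are written 5′ to 3′ with the motif in capitals.
Cst7: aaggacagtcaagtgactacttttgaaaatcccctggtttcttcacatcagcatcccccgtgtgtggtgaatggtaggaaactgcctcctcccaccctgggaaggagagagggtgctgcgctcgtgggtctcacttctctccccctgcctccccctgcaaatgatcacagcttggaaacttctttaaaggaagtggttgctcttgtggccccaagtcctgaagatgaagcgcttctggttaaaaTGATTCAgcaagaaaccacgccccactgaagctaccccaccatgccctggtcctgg
Gpnmb: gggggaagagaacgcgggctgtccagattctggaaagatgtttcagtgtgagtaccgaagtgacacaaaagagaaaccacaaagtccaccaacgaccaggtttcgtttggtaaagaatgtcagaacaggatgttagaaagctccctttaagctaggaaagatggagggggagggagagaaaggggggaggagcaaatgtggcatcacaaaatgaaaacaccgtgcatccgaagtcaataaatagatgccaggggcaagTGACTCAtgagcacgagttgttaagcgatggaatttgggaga
Itgax: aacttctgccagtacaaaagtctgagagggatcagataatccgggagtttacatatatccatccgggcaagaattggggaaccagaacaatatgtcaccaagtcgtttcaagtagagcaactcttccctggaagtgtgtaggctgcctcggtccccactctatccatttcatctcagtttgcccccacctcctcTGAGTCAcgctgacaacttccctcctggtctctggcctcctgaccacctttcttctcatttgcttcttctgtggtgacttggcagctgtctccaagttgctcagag
Trem2: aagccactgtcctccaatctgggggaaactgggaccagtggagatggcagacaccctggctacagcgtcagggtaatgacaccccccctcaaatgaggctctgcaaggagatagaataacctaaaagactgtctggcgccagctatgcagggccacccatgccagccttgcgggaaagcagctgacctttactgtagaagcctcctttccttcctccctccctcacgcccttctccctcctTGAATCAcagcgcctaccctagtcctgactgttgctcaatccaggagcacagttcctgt
A short form of the PU.1 motif, GAGGAA on either strand, was in windows of Clec7a, Spp1, Axl, Apoe and Trem2. It was in 7 of the 12 windows, and in 28.3% of all windows. Its longer form GAGGAAGT was in the Spp1 window and in 3.2% of all windows, and contains the short form. The core of the interferon-stimulated response element was in the Spp1 window and in 3.44% of all windows. The E-box TCACGTGA and its core CACGTG, letters that the MITF and TFE factors bind, were in 0 of the 12 windows, and in 0.974% and 7.15% of all windows.

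Matches to the miR-181 seed were looked up in the same genes because a microRNA lowers transcripts that carry them. The RefSeq mature sequences of a pair of family members share bases 2 to 8, the seed, shown in capitals.
mmu-miR-181a-5p: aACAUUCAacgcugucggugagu
mmu-miR-181b-5p: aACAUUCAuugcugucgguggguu
The letters TGAATGT (paired with the whole seed) and GAATGTA (paired with bases 2 to 7 and followed by A) were searched in 1 3′ UTR for each gene, the longest in GENCODE M21. Of the 10 genes, 8 held neither. Gpnmb and Spp1 each held 1 match, GAATGTA, at base 830 of 1868 in Gpnmb and at base 425 of 432 in Spp1, capitals in the lines below.
Gpnmb: tctccaaaGAATGTAaaaattgc
Spp1: cttgtaacGAATGTAa
Either match was in 21.8% of 21173 genes with an annotated 3′ UTR, in 28.5% of 1556 genes whose UTR length was within 10% of that of Gpnmb, and in 6.24% of 834 genes within 10% of that of Spp1. Gpnmb rose in injected miR-181 sides, and Spp1 was lower in 3 of 3 mice without passing the test.

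Injected sides of GFP mice were also higher for several of the 10 genes. Of the 10 genes, 6 were called higher in injected than in uninjected sides of GFP mice (Cst7, Clec7a, Gpnmb, Itgax, Trem2 and Tyrobp) and 0 lower, where 1.34% of 15274 genes tested were called higher and 0.0131% lower. The median log2 change was 0.95 over the 10 genes and 0.00 over all genes tested. With mouse as a block, which leaves out GFP mouse 5, 2 of the 10 genes were called, Cst7 and Tyrobp. In that fit 0.87% of all genes tested were called higher. Without both libraries of GFP mouse 1, 4 of the 10 genes were called: Cst7, Gpnmb, Trem2 and Tyrobp. Of all genes tested, 0.925% were then called higher. As in miR-181 mice, Cst7, Clec7a and Itgax reached the minimum mean through their injected sides.

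Trem2 had 16.5, 19.7, 16.3 and 22 normalized TPM in the injected sides of GFP mice 1 to 4, against 12.7, 10.2, 9.36, 9.05 and 9.34 in the uninjected sides of mice 1 to 5. The sides did not overlap, and Trem2 rose by 0.85 ± 0.12 on the log2 scale (SE, n = 4 injected and 5 uninjected sides; adjusted p = 0.00761), with an adjusted p of 0.0813 with mouse as a block. Mouse 1, which had the highest uninjected side, had the least change. Tyrobp had 100.1, 101, 86.4 and 90.0 normalized TPM in injected sides, against 54.3, 50.1, 36.2, 44.9 and 42.3 in uninjected sides. Its injected sides lay within a narrow range, and Tyrobp rose by 1.05 ± 0.11 (adjusted p = 0.00104), the call most steady among the 10 genes, with an adjusted p of 0.00258 with the block and at most 0.00638 when 1 library was left out.

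Clec7a varied widely between the injected GFP sides, at 2.86, 6.86, 1.31 and 7.77 normalized TPM, against 0.392, 0.446, 0.557, 0.482 and 0.0981 in uninjected sides. Mouse 3 had the lowest injected and the highest uninjected side, although the groups did not overlap. Clec7a rose by 2.32 ± 0.43 on the log2 scale (adjusted p = 0.0261), with an adjusted p of 0.117 with the block and 0.0958 without GFP mouse 1. The call was kept in 2 of 9 fits that left out 1 library, those without the injected side of mouse 3 or the uninjected side of mouse 1. Axl had 35.1, 36.6, 33.1 and 42.6 normalized TPM in injected sides, against 33, 28.4, 29.8, 39.1 and 35.4 in uninjected sides. The groups overlapped, the change of 0.16 ± 0.10 was not called (adjusted p = 0.692), and 4 of 4 mice were higher on the injected side.

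Itgax had 2.77, 3.13, 1.67 and 6.34 normalized TPM in injected GFP sides, against 0.519, 0.633, 0.108, 0.248 and 0.279 in uninjected sides. Mouse 4 stood above the other injected sides. Itgax rose by 2.12 ± 0.34 on the log2 scale (adjusted p = 0.013), with an adjusted p of 0.0636 with the block and 0.0552 without GFP mouse 1. Spp1 had 86.2, 96.6, 82.5 and 113 normalized TPM in injected sides, against 97.9, 107, 74.6, 80.9 and 91.1 in uninjected sides. The groups overlapped with mice 1 and 2 lower and mice 3 and 4 higher on the injected side, and the change of 0.07 ± 0.12 was not called (adjusted p = 0.897).

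Apoe had 3900.1, 4812, 3586 and 3917 normalized TPM in injected GFP sides, against 3439, 3423, 3109, 2977 and 3005 in uninjected sides. The sides did not overlap, but the change of 0.34 ± 0.08 was not called (adjusted p = 0.107). Lpl had 5.32, 5.49, 4.25 and 7.86 normalized TPM in injected sides, against 6.99, 6.2, 4, 6.47 and 3.91 in uninjected sides, and the groups overlapped. Its change of 0.06 ± 0.21 was not called (adjusted p = 0.958) and turned negative with the block, at -0.05.

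Cst7 had 3.87, 6.86, 3.23 and 14.4 normalized TPM in injected GFP sides, against 0.259, 0.442, 0.146, 0.636 and 0.126 in uninjected sides. Mouse 4 had the highest level on both sides. Cst7 rose by 3.02 ± 0.39 on the log2 scale (adjusted p = 0.00442), a ratio of means of 22.1, and kept its call in 9 of 9 fits that left out 1 library. Gpnmb fell into a high and a low pair of injected sides, at 3.34, 10.4, 3.99 and 9.92 normalized TPM, against 1.75, 1.58, 1.57, 1.22 and 1.53 in uninjected sides. Mice 2 and 4 were the high pair. Gpnmb rose by 1.72 ± 0.31 (adjusted p = 0.0249), with an adjusted p of 0.133 with the block and up to 0.0817 when 1 library was left out. Its call was kept in 3 of those 9 fits, without the injected side of mouse 1 or mouse 3 or the uninjected side of mouse 1. For 7 of the 10 genes, the 6 called genes and Apoe, injected and uninjected GFP sides did not overlap, where 3.29% of all genes tested had every injected side above every uninjected side.

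**Figure D2:**
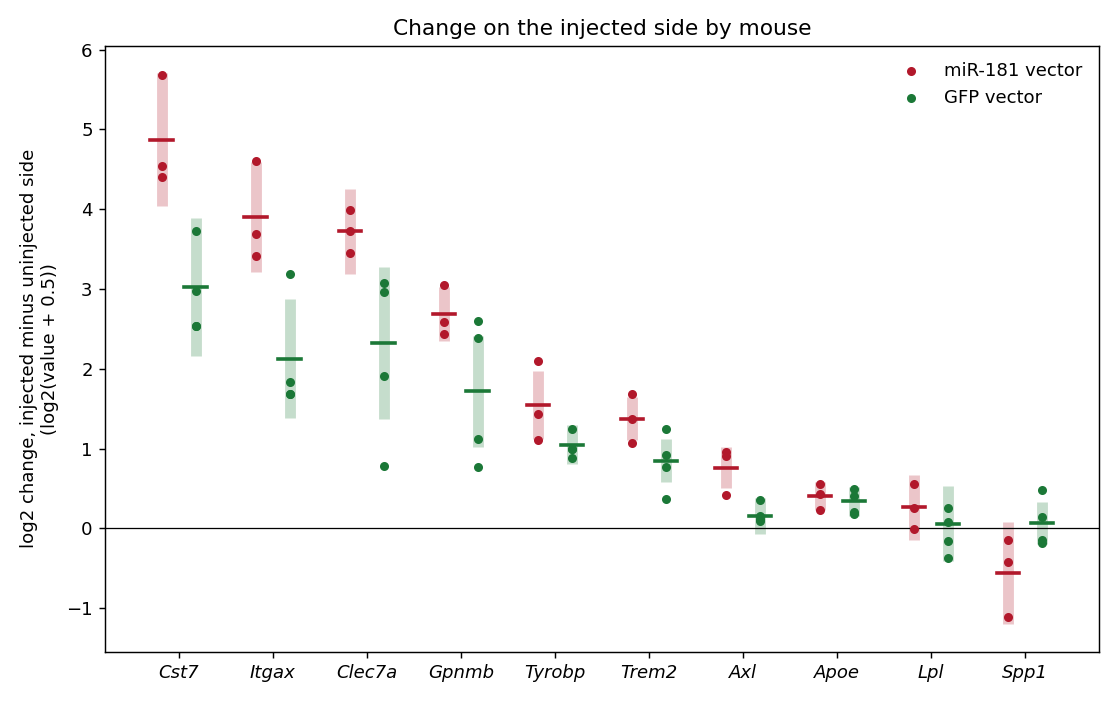
The log2 change of each gene, injected minus uninjected side on the log2(value + 0.5) scale: points are mice, short lines the fitted change and shaded bars its 95% interval, red for miR-181 and green for GFP. The fitted change was 4.87 for Cst7 in miR-181 mice and 3.02 in GFP mice, and that of Spp1 lay below 0 in miR-181 mice at -0.56.

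The changes of both sets of mice were then compared with each other. On the per-mouse log2 changes of 3 miR-181 and 4 GFP mice, 0 of the 10 genes were called different by limma, where 0.00675% of 14824 genes tested were called higher and 0.0202% lower. An unadjusted p under 0.05 was reached by 7 of the 10 genes and by 15.3% of all genes tested, and 0 of the 10 genes were called in a fit across all 15 libraries without the mouse, which called 9 of all genes tested higher and 36 lower. The median difference was 0.57 on the log2 scale over the 10 genes and 0.00 over all genes tested. On this log2 scale the changes of the mice did not overlap for 4 genes, Cst7, Clec7a, Itgax and Axl. Each had every miR-181 mouse above every GFP mouse, as in 6.83% of all genes tested. The reverse held for 0 of the 10 genes and 7.94% of all genes tested. The plain ratios of injected over uninjected sides overlapped between the sets for Clec7a and Itgax, and not for Cst7 and Axl. Cst7, Clec7a and Itgax reached the minimum mean through their injected sides, so their non-overlap is given as a description.

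Cst7 had log2 changes of 4.54, 5.68 and 4.40 in miR-181 mice, against 2.53, 2.97, 2.53 and 3.72 in GFP mice. The difference was 1.94 ± 0.41 with a 95% interval from 1.00 to 2.87 (adjusted p = 0.114). Itgax had changes of 3.41, 4.60 and 3.69 in miR-181 mice, against 1.68, 1.68, 1.83 and 3.19 in GFP mice. On this scale GFP mouse 4 came closest to the miR-181 mice, and the difference was 1.80 ± 0.46 (interval from 0.76 to 2.85, adjusted p = 0.146). Its plain Itgax ratio of 25.5 lay above those of miR-181 mice 1 and 3, at 20.1 and 23.2. Clec7a had changes of 3.99, 3.45 and 3.72 in miR-181 mice, against 1.91, 2.96, 0.78 and 3.07 in GFP mice. Its difference was 1.54 ± 0.53 (interval from 0.32 to 2.76, adjusted p = 0.238). The plain Clec7a ratios of GFP mice 2 and 4, at 15.4 and 16.1, lay above that of miR-181 mouse 2, at 14.6. Those of miR-181 mice 1 and 3, at 29.4 and 18.8, lay above all GFP mice. Axl had changes of 0.42, 0.96 and 0.91 in miR-181 mice, against 0.09, 0.36, 0.15 and 0.12 in GFP mice. Its difference of 0.58 ± 0.14 (interval from 0.27 to 0.89, adjusted p = 0.133) was called when miR-181 mouse 1, the mouse with the least change, was left out (adjusted p = 0.015).

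The changes of the remaining genes overlapped between the sets. Trem2 changed by a mean of 1.37 in miR-181 mice and 0.82 in GFP mice, a difference of 0.55 ± 0.22 (adjusted p = 0.286). Tyrobp changed by a mean of 1.55 in miR-181 mice and 1.03 in GFP mice, a difference of 0.52 ± 0.21 (adjusted p = 0.289). Gpnmb differed by 0.97 ± 0.46, with an interval from -0.07 to 2.02 (adjusted p = 0.365). Spp1 differed in the other direction, by -0.64 ± 0.24 with an interval from -1.17 to -0.10 (adjusted p = 0.266). Apoe differed by 0.08 ± 0.10 (adjusted p = 0.755) and Lpl by 0.32 ± 0.21 (adjusted p = 0.526), and neither interval excluded 0. The intervals bound each difference on its own and are not adjusted for the number of genes.

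Mice differed in the levels of the 10 genes on the injected side. The injected side of miR-181 mouse 1 was the lowest of its group for 8 of the 10 genes, all but Spp1 and Lpl, while mouse 2 was the highest for 5 (Cst7, Itgax, Axl, Trem2 and Tyrobp) and mouse 3 for 5 (Clec7a, Gpnmb, Spp1, Lpl and Apoe). Among injected GFP sides mouse 3 was the lowest for 9 of the 10 genes, and mouse 4 the highest for 7. These ranks are of levels in 1 library each, so size factors of the library move all 10 genes alike. The order by log2 change between the sides was another. Of the miR-181 mice, mouse 1 had the lowest change for 6 genes and the highest for Clec7a and Spp1, and mouse 2 had the highest change for 5 genes and the lowest for Clec7a, Spp1 and Lpl. Of the GFP mice, mouse 1 had the lowest change for 8 genes and mouse 4 the highest for 7, while mouse 3 had the lowest change of Clec7a and the highest of Tyrobp.

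**Figure D3:**
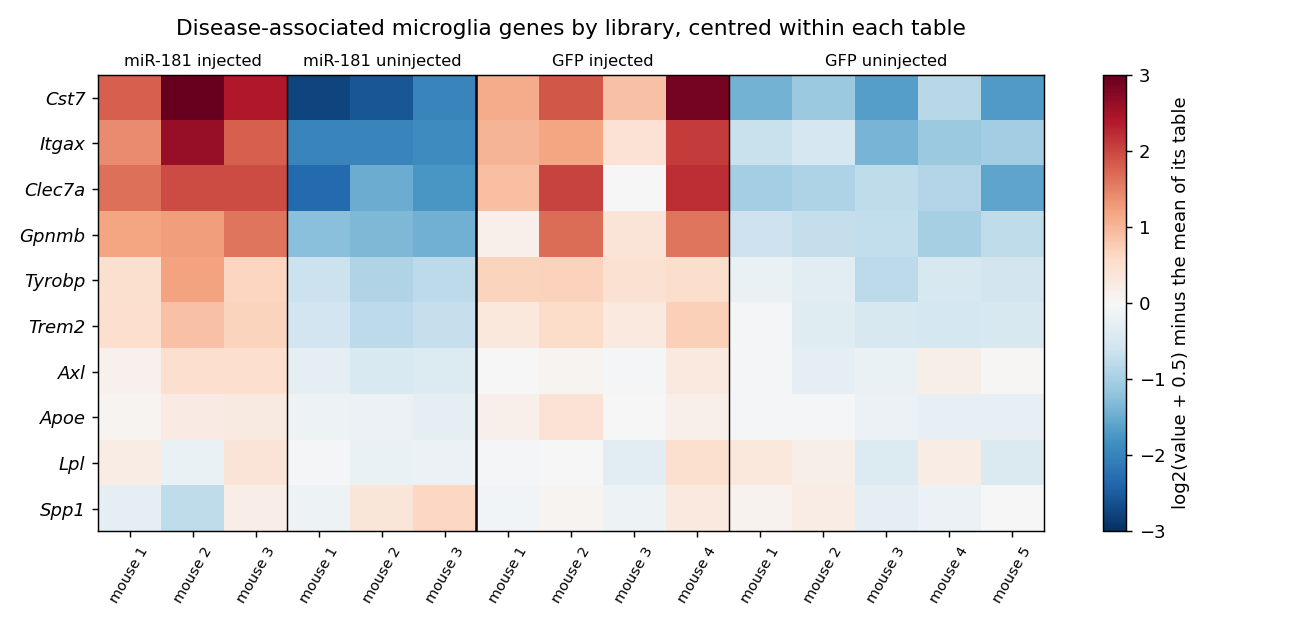
The log2(value + 0.5) of each gene in each library minus the mean of its table, blue below and red above that mean, with injected sides left of uninjected sides in each set. Injected miR-181 mouse 2 and injected GFP mouse 4 carry the darkest red for Cst7 and Itgax, and the rows of Axl, Apoe, Lpl and Spp1 stay pale.

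The homeostatic microglia markers, which fall in disease-associated microglia of amyloid models, had 0 calls lower here. In miR-181 mice 8 of the 12 were called higher and 0 lower, with a median log2 change of 0.78; 1 was called without any 1 of the uninjected sides and 3 without the injected side of mouse 3. In GFP mice 5 of the 12 were called higher and 0 lower, with a median of 0.49; 3 were called without both libraries of GFP mouse 1, without its injected side alone, or without the uninjected side of mouse 5. Tmem119, a microglia marker, had 49 ± 13 normalized TPM in injected and 21.5 ± 1.96 in uninjected miR-181 sides (SD, n = 3 each). In GFP mice it had 32.8 ± 3.78 in injected and 20.1 ± 2.81 in uninjected sides (SD, n = 4 and 5). The 6 genes shared by microglia and other macrophages (Aif1, Laptm5, Ptprc, C1qa, C1qb and C1qc) were each called higher in both sets, with median log2 changes of 1.95 in miR-181 mice and 1.20 in GFP mice. The sum of homeostatic markers was between 639.9 and 863 normalized TPM in injected and between 398 and 421 in uninjected miR-181 sides, and between 454 and 544 in injected and between 302 and 383 in uninjected GFP sides. How far the number of microglia sets the values of the 10 genes was not tested.

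Set against the median change of the homeostatic markers in the same mouse, the 10 genes differed among themselves. Cst7, Clec7a, Gpnmb, Itgax and Tyrobp changed by more than that median in 3 of 3 miR-181 mice and 4 of 4 GFP mice. Cst7 exceeded it by between 3.63 and 4.75 on the log2 scale in miR-181 mice and between 1.93 and 3.22 in GFP mice. Trem2 exceeded it in 3 of 3 miR-181 and 3 of 4 GFP mice, by between 0.53 and 0.75 in miR-181 mice. Axl exceeded it in 2 of 3 miR-181 and 1 of 4 GFP mice, and Apoe in 0 of 3 and 1 of 4. Spp1 and Lpl were below it in all 7 mice. The macrophage marker Aif1 itself changed by 1.28, 2.50 and 2.21 in miR-181 mice and by 1.23, 1.24, 0.90 and 1.09 in GFP mice, more than Tyrobp in 6 of 7 mice.

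Partners of the 10 genes were described from lists. Of 11 genes of ITAM and lectin receptor signalling, 8 were called higher in miR-181 mice and 4 in GFP mice, and with mouse as a block 6 and 2. In miR-181 mice 0 were called without any 1 of the uninjected sides and 1 without the injected side of mouse 3. In GFP mice 1 was called without both libraries of mouse 1 or without the uninjected side of mouse 3 or mouse 5, and 2 without the injected side of mouse 1, 2 or 4. Fcer1g, an ITAM adaptor like Tyrobp, had 101 ± 33.4 normalized TPM in injected and 29.8 ± 2.48 in uninjected miR-181 sides, and rose by 1.68 ± 0.23 on the log2 scale (adjusted p = 0.0128). Inpp5d, the phosphatase SHIP1 that restrains this pathway, rose by 1.28 ± 0.17 (adjusted p = 0.0118), and Vav1, an exchange factor downstream of SYK, by 1.62 ± 0.21 (adjusted p = 0.0104). In miR-181 mice these 3 calls were kept in 2 or 3 of 6 fits that left out 1 library. In GFP mice Fcer1g rose by 1.06 ± 0.16 (adjusted p = 0.00904). Inpp5d rose there by 0.65 ± 0.12 (adjusted p = 0.0302) and Vav1 by 0.93 ± 0.16 (adjusted p = 0.0174). Those calls were kept in 9, 2 and 6 of 9 such fits. Card9, Bcl10 and Malt1, which carry the dectin-1 signal to NF-κB, were called in neither set.

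Of 4 other TAM receptors and TAM ligands, 2 were called higher in miR-181 mice and 0 in GFP mice. The TAM receptor Mertk rose by 0.45 ± 0.10 (adjusted p = 0.0486) and the ligand Pros1 by 0.69 ± 0.13 (adjusted p = 0.0303) in miR-181 mice, and with the block 1 of the 4 genes was called. Neither was called without any 1 of the uninjected sides or without the injected side of mouse 3, and Mertk was not called without the injected side of mouse 2. Gas6, the ligand of Axl, had 93.2 ± 5.47 normalized TPM in injected and 104 ± 1.67 in uninjected miR-181 sides, and its change of -0.16 ± 0.05 was not called (adjusted p = 0.133). Of the lipoprotein and cholesterol genes around Apoe and Lpl, 3 of 15 tested were called higher in miR-181 mice (Abca1, Clu and Npc2) and 3 of 16 in GFP mice (Apod, Clu and Npc2). In miR-181 mice 0 were called without any 1 of the uninjected sides or the injected side of mouse 3, and 1 without the injected side of mouse 2. In GFP mice 1 was called without both libraries of mouse 1, and the count ran from 0 to 3 when 1 library was left out, with 0 without the injected side of mouse 1 or the uninjected side of mouse 3, 4 or 5, and 1 without the injected side of mouse 2 or 3 or the uninjected side of mouse 2. Clu, another apolipoprotein of the brain, rose by 0.41 ± 0.08 in miR-181 mice (adjusted p = 0.0391) and by 0.27 ± 0.05 in GFP mice (adjusted p = 0.0195), calls kept in 1 of 6 and 5 of 9 fits that left out 1 library.

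Cathepsins are the proteases that cystatins such as Cst7 inhibit. Of 11 cathepsins, cystatins and legumain, 8 were called higher in miR-181 mice and 5 in GFP mice. In miR-181 mice 1 was called without the uninjected side of mouse 1 or mouse 2 or the injected side of mouse 3, and 3 without the uninjected side of mouse 3. In GFP mice 3 were called without the injected side of mouse 1, 2 or 4. Ctss rose by 2.19 ± 0.19 in miR-181 mice (adjusted p = 0.00303) and by 1.51 ± 0.12 in GFP mice (adjusted p = 0.000401). Ctsd rose by 0.97 ± 0.13 in miR-181 mice (adjusted p = 0.0115) and by 0.44 ± 0.06 in GFP mice (adjusted p = 0.00761). Ctss kept its calls in all fits that left out 1 library, and Ctsd in 2 of 6 in miR-181 mice and 9 of 9 in GFP mice. The cystatins Cst3 and Cstb were called in neither set. Of 10 integrins and osteopontin receptors, 5 were called higher in miR-181 mice and 4 in GFP mice, among them Itgb2, the partner chain of Itgax, which rose by 2.07 ± 0.21 (adjusted p = 0.00512) and 1.36 ± 0.13 (adjusted p = 0.000848). Of the 5, 1 was called without any 1 of the uninjected sides or without the injected side of mouse 3.

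Of 20 further genes described in disease-associated microglia, 11 were called higher and 0 lower in miR-181 mice, with a median of 0.68. In GFP mice 5 of 18 tested were called higher, with a median of 0.27. Ccl4, among the 11, had a mean of 0.388 in uninjected miR-181 sides and passed the minimum mean through its injected sides. The count of 11 is therefore given as a description. With the block 9 and 2 were called, and in miR-181 mice 5 or 6 without any 1 of the uninjected sides and 5 without the injected side of mouse 3. Cd52 had 118 ± 58.5 normalized TPM in injected and 8.85 ± 2.09 in uninjected miR-181 sides. It rose by 3.58 ± 0.35 in miR-181 mice (adjusted p = 0.00425) and by 2.43 ± 0.25 in GFP mice (adjusted p = 0.00104). Lyz2, lysozyme of myeloid cells, rose by 2.43 ± 0.14 in miR-181 mice (adjusted p = 0.00225) and by 2.42 ± 0.28 in GFP mice (adjusted p = 0.00244). Among myeloid transcription factors, Irf8 rose by 2.13 ± 0.23 in miR-181 mice (adjusted p = 0.00595). In GFP mice it rose by 1.41 ± 0.16 (adjusted p = 0.00219). Mitf, Tfeb and Tfe3, regulators of lysosomal genes, were called in neither set. Cd52, Lyz2, Irf8 and Itgb2 kept their calls in 6 of 6 fits that left out 1 library in miR-181 mice and 9 of 9 in GFP mice. In the comparison of the sets, 0 genes of any of these lists were called.

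Several of the 10 genes are also made by other myeloid or lymphoid cells. The 9 monocyte and perivascular macrophage markers summed to between 22.8 and 74.7 normalized TPM in injected and between 11.5 and 15.2 in uninjected miR-181 sides, and between 14.4 and 25.7 in injected and between 5.26 and 10.9 in uninjected GFP sides. Of those tested, 3 of 7 were called higher in miR-181 mice (Ly6c2, Plac8 and Clec10a) and 0 of 6 in GFP mice, while Mrc1, Cd163, Ms4a7 and F13a1 were called in neither set. Ly6c2, a marker of inflammatory monocytes, had 26.5 ± 18.2 normalized TPM in injected and 1.07 ± 0.145 in uninjected miR-181 sides. It kept its call in 1 of 6 fits that left out 1 library. Ly6c2 and Plac8 had the highest means of the 9 markers in injected miR-181 sides, Plac8 at 9.67. Lyve1 had lower means in injected than in uninjected sides, at 0.487 against 1.04 (miR-181) and 0.448 against 0.638 (GFP). The other markers of the 9 had higher means in injected sides of both sets. The 8 cytotoxic lymphocyte markers, cells that also make Cst7, summed to between 10.7 and 62.5 in injected and between 0.793 and 3.15 in uninjected miR-181 sides, and between 3.19 and 5.74 in injected and between 0.259 and 2.42 in uninjected GFP sides. In miR-181 mice 4 of 5 tested were called higher (Nkg7, Gzmb, Cd8a and Cd3e; Gzmb in 1 and each of the others in 2 of 6 such fits). These 4, and Plac8 above, had uninjected means under 1 and passed the minimum mean through their injected sides, so the count is a description. In GFP mice 0 of the 8 reached the minimum mean. The 6 dendritic cell markers summed to between 15.8 and 17.6 in injected and between 18.7 and 19.6 in uninjected miR-181 sides. In GFP sides the sums were between 18 and 20.4 (injected) and between 17.2 and 19.7 (uninjected). Xcr1, Clec9a and Cd209a had means under 1 in all 4 groups. The means of Xcr1 and Clec9a were higher in injected than in uninjected sides of both sets, and that of Cd209a was lower. Ccr7 had means of 1.07 in injected and 0.0288 in uninjected miR-181 sides, and of 0.429 and 0.0235 in GFP sides. Of the dendritic cell markers tested, Flt3 fell and Zbtb46 was not called in miR-181 mice, and 0 of 2 were called in GFP mice. Flt3 had 9.79 ± 1.01 normalized TPM in injected and 13.5 ± 0.559 in uninjected miR-181 sides, a change of -0.45 ± 0.09 (adjusted p = 0.0435; 0.0764 with the block; called in 1 of 6 fits that left out 1 library). The part of monocytes, dendritic cells and lymphocytes in the values of the 10 genes was not tested.

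Markers of the other cell types of the region gave 1 call, the astrocyte gene Aqp4, which rose by 0.46 ± 0.09 in miR-181 mice (adjusted p = 0.034; 0.0594 with the block; called in 1 of 6 fits that left out 1 library). The remaining astrocyte genes and the neuron, dopamine neuron, oligodendrocyte, oligodendrocyte precursor, endothelial and fibroblast markers tested were called in neither set.

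**Figure D4:**
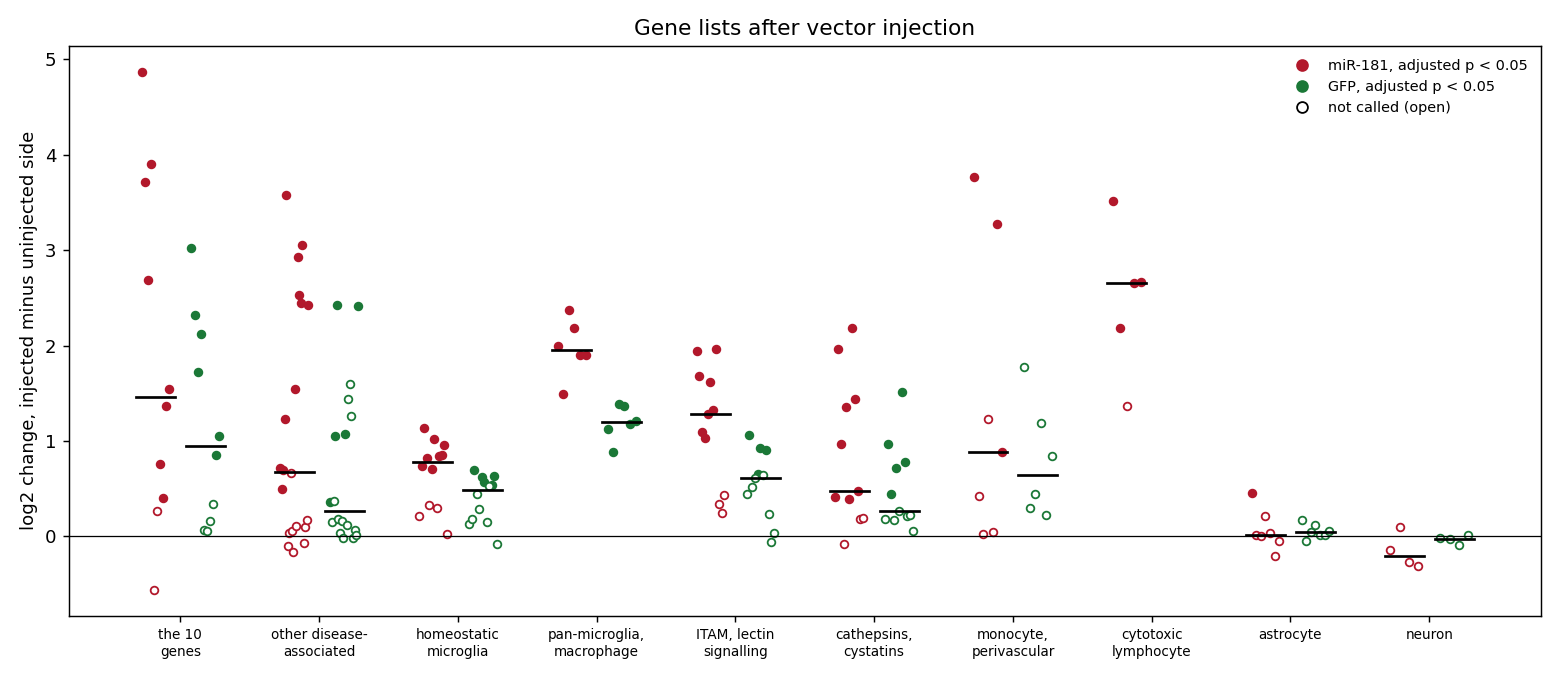
The fitted log2 change (injected minus uninjected side) of the tested genes of each list, red for miR-181 and green for GFP, filled where the adjusted p was under 0.05 and open otherwise, with a black bar at the median. The 10 genes spread from -0.56 to 4.87 in miR-181 mice, while the homeostatic markers lie between 0.03 and 1.14.

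The genes whose pattern was most like the mean of the 10 genes were Cybb, Igsf6, Fcgr2b, Lilrb4a and C3, with Pearson r of 0.984, 0.983, 0.979, 0.977 and 0.976 over 15 libraries, each centred on its table, among 14824 genes. The libraries share mice and fall into injected and uninjected sides, so r ranks genes here and is given without a test. Cybb, a subunit of the phagocyte NADPH oxidase, rose by 2.57 in miR-181 mice (adjusted p = 0.00552) and by 1.80 in GFP mice (adjusted p = 0.0248). C3, the central complement component, rose by 3.80 in miR-181 mice (adjusted p = 0.00225) and by 2.20 in GFP mice (adjusted p = 0.0058). Fcgr2b, an inhibitory Fc receptor, rose by 2.32 in miR-181 mice (adjusted p = 0.00331) and by 1.51 in GFP mice (adjusted p = 0.00303). Igsf6 and Lilrb4a rose by 1.24 and 2.53 in miR-181 mice (adjusted p = 0.00816 and 0.00239), and their changes of 0.63 and 1.60 in GFP mice were not called (adjusted p = 0.234 and 0.0687). Within the 10 genes, r with their own mean ran from 0.839 (Axl) to 0.992 (Cst7) for 8 genes, and was 0.445 for Lpl and -0.279 for Spp1.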

How the data were processed

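Poly(A)-selected RNA of 15 libraries was quantified against GRCm38 with kallisto 0.43.1 and sleuth 0.30.0, per the submitters' processing notes. Library sums between 970505 and 1040288 led to the deposited values being read as a signal: TPM over a size factor that is common to all genes of a library. The authors scaled each table on its own. The planned test assumed TPM and was kept. Each table had 56305 rows, 36660 with values; 395 rows that repeated a symbol and all its values, as for Trem2, were left out, and 35859 of the 36265 genes kept matched GENCODE M21 identifiers. No counting intervals are given, as depth is unknown. The authors' deposited coefficients were taken for natural log values, their median ratio to the log2 change of called genes being 0.72 and 0.73; the deposited p-values and q-values are theirs.

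limma 3.58.1 (R 4.3.3) was run with an intensity trend on log2(value + 0.5), over genes with a mean of at least 1, with Benjamini-Hochberg adjustment at 0.05. Changes of low genes are understated on that scale. The difference set the log2 changes of 3 miR-181 mice against those of 4 GFP mice. The labels give both sides of a mouse to 1 animal, which pairs libraries by mouse number; the residuals of paired sides correlated at 0.183, 0.14 and 0.257 (miR-181 mice) and 0.192, 0.0947, 0.0177 and 0.122 (GFP mice). The test was run on simulated data first. Alternatives were other pseudocounts, filters and scalings, no trend, mouse as a block, and each library or GFP mouse 1 left out.

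The 10 genes and all lists were chosen with earlier results of these data known. Named with values were the 10 genes, from other lists genes among the 2 with the smallest p in either set of mice, and the 5 genes most like the mean of the 10; other list genes are named as called or not, or as markers, and some list genes are not reported here. Sequences were read with Python 3.11.15 and pandas 2.3.3, and figures drawn with matplotlib 3.10.9.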

Additional observations from a re-analysis of the deposited data

Results flagged for a closer look

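Among 30 groups of 4 or 5 values of the 10 genes that were screened for a value far from the rest, 1 was flagged, where chance flags about 1 in 20. The log2 change of Itgax in GFP mouse 4 was 3.19, against 1.68, 1.68 and 1.83 in GFP mice 1 to 3. Without the injected side of GFP mouse 4 the call of Itgax in GFP mice was kept.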

How the results depend on the processing

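Direction and call held in 126 of 139 alternative values of single genes in miR-181 mice (13 lost the call), 150 of 176 in GFP mice (21 lost the call, 5 changed sign) and 143 of 145 for the difference (1 gained a call, 1 changed sign). Calls among the 10 genes ranged from 5 to 8 without 1 library in miR-181 mice, with 5 without the uninjected side of mouse 2; in GFP mice they came to 2 with the replicate block of mouse and 2 with a minimum mean of 5, which leaves Cst7, Clec7a, Gpnmb and Itgax untested. For the difference they ranged from 0 to 1 without 1 mouse, with 1 (Axl) without miR-181 mouse 1. Over all genes, the 908 calls in miR-181 mice became 315 with no filter and 449 with no trend, and ranged from 117 (without the uninjected side of mouse 2) to 1924 (without the injected side of mouse 1) when 1 library was left out. The 206 calls in GFP mice became 136 with a minimum mean of 5 and 135 with the block, and ranged from 108 to 255. The 4 calls for the difference became 1 with a pseudocount of 1, no filter, quantile normalization or median centring, 45 with no replicate block, and between 1 and 322 (without miR-181 mouse 1) without 1 mouse. Sign changes were Spp1 in GFP mice without injected mouse 4 (-0.02, in a range up to 0.13 over left-out libraries), Lpl in GFP mice with the block (-0.05), without injected mouse 4 (-0.10, in a range up to 0.18), uninjected mouse 5 (-0.05) or uninjected mouse 3 (-0.04), and Apoe in the difference with quantile normalization (-0.14). Where no other cause is named, it was not tested. The block changed no other call of the 10 genes than those given in the report.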

Other observations

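The authors' deposited table for miR-181 mice gave q-values under 0.05 for 8 of the 10 genes, the 8 called here, with a coefficient of 3.99 ± 0.388 (natural log scale) for Cst7 and -0.394 ± 0.247 for Spp1. The authors' deposited table for GFP mice held statistics for 9 of the 10 genes, Cst7 being listed without any, and gave q-values under 0.05 for 6: Clec7a, Gpnmb, Itgax, Apoe, Trem2 and Tyrobp. In the authors' deposited table for GFP mice the q-value of Apoe was 0.0243.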
